A study of Mus musculus with 3 samples.

Results

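The 10 genes described here encode p53, its ubiquitin ligase MDM2, and 8 proteins of the BCL2 family, which together decide whether a stressed cell stops, repairs itself, or dies. They were picked by name (*Trp53*, *Mdm2*, *Bcl2*, *Bcl2l1*, *Mcl1*, *Bax*, *Bak1*, *Bcl2l11*, *Pmaip1*, and *Bbc3*), and each matched 1 of the 55421 named genes in the count table. Their transcripts were measured by polyA RNA-seq in 3 libraries (replicates 1, 2, and 3) of ALSCs, mouse stem cells derived from epiblasts of E6.5 gastrulae. The embryos came from ICR females mated with males carrying the GOF/GFP reporter, and the cells were grown in N2B27 medium with LIF at 1000 U/ml and Activin A at 20 ng/ml. All 3 libraries belong to this 1 condition, so the only comparisons are between genes and between libraries. The labels do not say whether the replicates are separate lines or separate cultures of 1 line, and the p-values below measure only the spread between these samples, which may be technical.

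The total count on named genes was between 18037342 and 18724038 per library. Levels are given as FPKM (fragments per kilobase per 1000000 counts), scaled by gene length and by each library's sum over named genes, and 11125 genes reached 1 FPKM in every library. The pluripotency genes that define the labelled cell type were present, with *Pou5f1* at 648 ± 25.3 FPKM, *Sox2* at 119 ± 5.21 FPKM, and *Nanog* at 171 ± 17.96 FPKM (SD, n = 3). Of 4 naive genes, *Zfp42* and *Tbx3* had at most 3 counts per library, while *Klf4* and *Esrrb* were detected below 1 FPKM, at 0.342 ± 0.0599 and 0.788 ± 0.191 FPKM (SD, n = 3). Of 5 fibroblast genes, *Dcn* and *Lum* had 0 counts, *Col3a1* and *Postn* had 0 to 3, and *Col1a2* was at 0.236 FPKM. In bulk RNA, fewer cells expressing a gene and less of its RNA per cell cannot be told apart.

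The transcription factor p53 is kept scarce by MDM2, which marks it for degradation, and MDM2 is itself a p53 target, so both form a feedback loop. The BCL2 family then acts at the mitochondrial outer membrane. Guardians (BCL2, BCL-XL from *Bcl2l1*, and MCL1) hold back the effectors BAX and BAK, which would otherwise make pores that release cytochrome c, and BH3-only proteins (BIM from *Bcl2l11*, NOXA from *Pmaip1*, and PUMA from *Bbc3*) bind the guardians or the effectors and tip the balance toward death. Pluripotent stem cells are known for a low threshold to this mitochondrial route.

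The family is held together by the BH3 stretch, a short helix through which its members bind each other. To show how alike this stretch is at the base level, its core was searched in each gene's transcript with the longest coding sequence. The pattern was leucine, any 3 residues, glycine or alanine, and aspartate. The sequences are coding bases of GENCODE M21 transcripts on GRCm38, and the capitals mark the 18 bases of the core. The guardians carried it in *Bcl2* (chr1:106712572-106712613, minus strand, exon 1 of 2), *Bcl2l1* (chr2:152829694-152829735, minus strand, exon 2 of 3), and *Mcl1* (chr3:95659424-95659465, plus strand, exon 1 of 3).
Bcl2: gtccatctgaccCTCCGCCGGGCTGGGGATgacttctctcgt
Bcl2l1: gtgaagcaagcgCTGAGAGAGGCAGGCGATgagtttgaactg
Mcl1: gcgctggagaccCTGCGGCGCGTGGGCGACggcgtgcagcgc
The effectors carried it in *Bax* (chr7:45465994-45466035, minus strand, exon 3 of 6) and *Bak1* (chr17:27022528-27022569, minus strand, exon 4 of 6).
Bax: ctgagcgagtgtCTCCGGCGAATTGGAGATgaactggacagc
Bak1: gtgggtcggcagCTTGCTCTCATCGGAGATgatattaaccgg
The BH3-only genes carried it in *Bcl2l11* (chr2:128147138-128147179, plus strand, exon 3 of 4) and *Bbc3* (chr7:16313761-16313802, plus strand, exon 3 of 4).
Bcl2l11: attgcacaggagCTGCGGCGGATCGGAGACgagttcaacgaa
Bbc3: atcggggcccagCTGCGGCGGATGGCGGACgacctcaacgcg
Each of these 7 genes had 1 match, *Pmaip1* had 2, and *Trp53* and *Mdm2* had 0. Over the 7 printed cores, 5 of the 18 positions held the same base in every sequence. Most of these follow from the search itself, because the codons of the residues it requires share bases. The same bases add to every pairwise count that follows. The most alike pair was the BH3-only genes *Bcl2l11* and *Bbc3*, identical at 15 of 18 bases, and the least alike was *Bcl2l1* and *Bak1*, identical at 7 of 18. The BIM core matched that of *Mcl1* and that of *Bax* at 14 bases each, and the 2 effectors matched each other at 11. The pattern is short, and 23.8% of 21817 coding genes contained it, so a match alone does not mark a BCL2 protein.

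*Trp53* (ENSMUSG00000059552, chr11:69580359-69591873, plus strand) was the second most abundant of the 10 genes. It had 4507, 4340, and 4457 counts, or 61.6, 57.3, and 61.1 FPKM in replicates 1, 2, and 3, with a mean of 60 ± 2.35 FPKM (SD, n = 3). This level lay above that of 91.1% of the genes that reached 1 FPKM in every library. Replicate 2 was the lowest, and the libraries varied by more than counting error (adjusted p = 5.53e-08, chi-square test of homogeneity with Benjamini-Hochberg adjustment over all genes tested). That call is common in this table: 47.2% of the 16944 genes tested passed it, and 3 of the 9 members tested did. The *Trp53* call was also made when any 1 library was left out, with adjusted p = 0.00550 without replicate 1, 0.0489 without replicate 2, and 9.24e-09 without replicate 3. A processed copy of the gene, *Trp53-ps*, shared 135 of the 1818 words of 50 bases in the gene's longest coding transcript and had 30 to 44 counts, so reads on the shared stretches may have been placed on either.

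*Mdm2* (ENSMUSG00000020184, chr10:117688875-117710758, minus strand) had 1357, 1564, and 1386 counts, or 14.8, 16.4, and 15.1 FPKM, and averaged 15.4 ± 0.882 FPKM (SD, n = 3). Replicate 2 was the highest, and the spread did not pass the test (adjusted p = 0.234, chi-square test with Benjamini-Hochberg adjustment). Per length, the ligase's transcript stood at 0.240, 0.287, and 0.248 of that of its substrate, a ratio of 0.258 ± 0.0253 (SD, n = 3). *Mdm2* was therefore the less abundant transcript of the loop in every library.

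Among the guardians, *Mcl1* (ENSMUSG00000038612, chr3:95658788-95663176, plus strand), whose protein is short-lived, was by far the most abundant. Its counts of 3088, 3185, and 3037 gave 49.95, 49.8, and 49.3 FPKM, with a mean of 49.7 ± 0.356 FPKM (SD, n = 3), above 89.1% of expressed genes. No other member was as even between libraries: its coefficient of variation was 0.716%, and only 0.378% of expressed genes had a smaller one. Scaled for library composition, however, its spread was close to the threshold (adjusted p = 0.0697, chi-square test with Benjamini-Hochberg adjustment) and passed it without replicate 3 (adjusted p = 0.0401).

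*Bcl2l1* (ENSMUSG00000007659, chr2:152780668-152831728, minus strand), which encodes BCL-XL, was next with 753, 901, and 865 counts. These gave 9.08, 10.5, and 10.5 FPKM and a mean of 10.01 ± 0.807 FPKM (SD, n = 3). Replicate 1 was below the other libraries, but the spread did not pass the test (adjusted p = 0.152, chi-square test with Benjamini-Hochberg adjustment). Counts per gene do not separate the long, protective forms of *Bcl2l1* and *Mcl1* from their short, death-promoting splice forms. These levels therefore take in whichever forms were present.

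*Bcl2* (ENSMUSG00000057329, chr1:106538178-106714274, minus strand), the founding member of the family, was the scarcest guardian. It had 82, 111, and 101 counts, which over its long transcripts gave 0.495, 0.647, and 0.612 FPKM, with a mean of 0.585 ± 0.0796 FPKM (SD, n = 3). It stayed below 1 FPKM in every library but was well above the 0.0179 FPKM that 3 counts would give, so it was low and detected. The spread did not pass the test (adjusted p = 0.421, chi-square test with Benjamini-Hochberg adjustment). An antisense gene, D630008O14Rik, overlaps 6.09% of its exon bases and had 0 counts in every library, although the strand setting of the counting is not given in the sources used here.

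The effector *Bax* (ENSMUSG00000003873, chr7:45461697-45466898, minus strand) was the most abundant of the 10 genes. It had 3893, 3242, and 3054 counts, or 136.6, 109.9, and 107.4 FPKM, and a mean of 118 ± 16.2 FPKM (SD, n = 3), above 95.7% of expressed genes. Replicate 1 stood apart from replicates 2 and 3, which lay close together. The difference between the 3 libraries passed the test (adjusted p = 1.33e-39, chi-square test with Benjamini-Hochberg adjustment), and replicates 2 and 3 alone did not pass it (adjusted p = 0.911). Of all genes tested, 8.11% passed in that comparison of replicates 2 and 3. The exons of *Bax* overlap those of Gm45808 on the same strand over 12.2% of their bases, and that gene had 0 counts. How reads on shared bases were counted is not given in the sources used here.

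The second effector, *Bak1* (ENSMUSG00000057789, chr17:27019810-27029009, minus strand), had 1319, 1373, and 1247 counts, or 30.3, 30.5, and 28.7 FPKM. Its mean was 29.8 ± 0.961 FPKM (SD, n = 3), above 82.4% of expressed genes. The libraries did not differ beyond the threshold (adjusted p = 0.109, chi-square test with Benjamini-Hochberg adjustment), although they did without replicate 2 (adjusted p = 0.0421). *Ggnbp1*, on the opposite strand, overlaps 25.5% of its exon bases and had 23, 29, and 36 counts, a small number beside those of *Bak1*. Since the strand setting and the counting of shared bases are not given in the sources used here, reads of *Bak1* lost to this overlap cannot be judged from those counts.

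The 3 BH3-only genes all lay below both effectors when scaled by the table's gene length, and their levels differed widely. With the length of the longest coding transcript, *Bak1* and *Bbc3* were nearly equal, with means of 30.1 and 29.4 FPKM and overlapping libraries. *Bbc3* (ENSMUSG00000002083, chr7:16308393-16318205, plus strand), which encodes the p53 target PUMA, had 981, 967, and 980 counts, or 25.5, 24.3, and 25.6 FPKM, and a mean of 25.1 ± 0.717 FPKM (SD, n = 3). This was above 79.3% of expressed genes. The spread did not pass the test (adjusted p = 0.119, chi-square test with Benjamini-Hochberg adjustment) but did without replicate 3 (adjusted p = 0.0445).

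*Bcl2l11* (ENSMUSG00000027381, chr2:128126038-128162547, plus strand), which encodes BIM, had 605, 837, and 683 counts, or 4.17, 5.57, and 4.72 FPKM, with a mean of 4.82 ± 0.706 FPKM (SD, n = 3). Replicate 1 was the lowest and replicate 2 the highest. The difference between libraries passed the test (adjusted p = 0.000123, chi-square test with Benjamini-Hochberg adjustment) but not when replicate 2 was left out (adjusted p = 0.228).

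*Pmaip1* (ENSMUSG00000024521, chr18:66458533-66465565, plus strand), which encodes the p53 target NOXA, had 1, 2, and 1 counts. These correspond to 0.0202, 0.0391, and 0.0203 FPKM, all below the 0.0601 FPKM of 3 counts, so the gene was not detected at this depth. The 4 counts over all libraries have an exact Poisson 95% interval of 1.09 to 10.2 counts, which covers counting error only. Per length and over all libraries, the *Bbc3* level was 942 times that of *Pmaip1* (95% counting interval 367 to 3458) and the *Bcl2l11* level 181 times (70.5 to 664). No other annotated gene shared a word of 50 bases with its longest coding transcript.

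**Figure D1:**
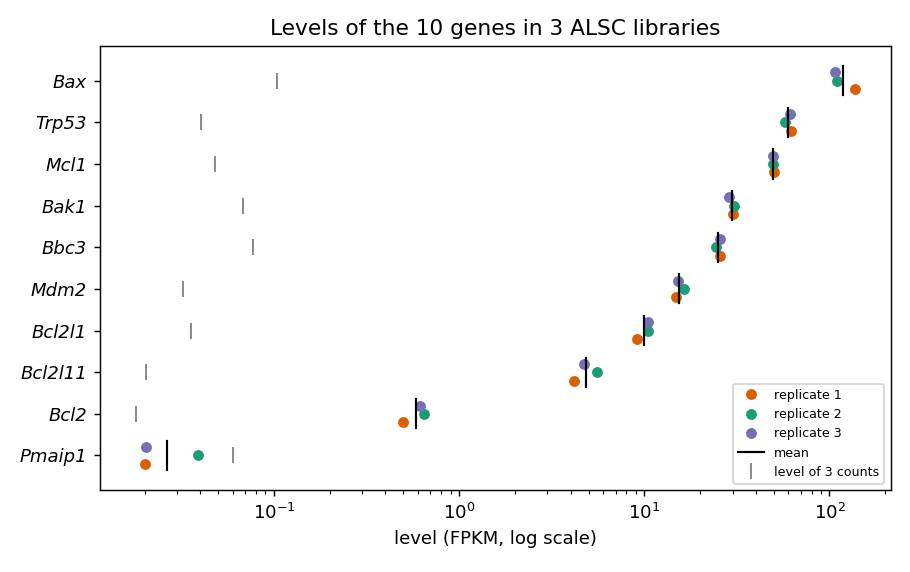
Level in FPKM (log axis) of the 10 genes in each of the 3 ALSC libraries (points), with the mean (black line) and the level that 3 counts would give (grey tick). *Bax* is highest at 107.4 to 136.6 FPKM and only *Pmaip1* lies below its level of 3 counts.

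Ordered by level per length, the genes ran *Bax*, *Trp53*, *Mcl1*, *Bak1*, *Bbc3*, *Mdm2*, *Bcl2l1*, *Bcl2l11*, *Bcl2*, and *Pmaip1*. The libraries' ranges did not overlap for any of the 9 neighbouring pairs. The closest neighbours were *Bak1* and *Bbc3*, whose means differed 1.19-fold and whose nearest libraries were at 28.7 and 25.6 FPKM. *Trp53* and *Mcl1* were almost as close, at 1.21-fold. The widest steps stood at the bottom of the order. *Bcl2l11* was 8.24-fold above *Bcl2*, and the step from *Bcl2* to the undetected *Pmaip1* is known only roughly, at 21.9-fold over all libraries with a 95% counting interval of 8.47 to 81.02. With 3 libraries, no exact test between genes was made, and the ranges are a description. In all, 8 of the 10 members reached 1 FPKM in every library, against 10023 of 21926 protein-coding genes.

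Summed by role over the members alone, the effectors held the most transcript and the BH3-only genes the least. This order depends on the genes chosen: *Bnip3*, a BH3-only gene that is not a member, averaged 131 FPKM by itself. Other genes of these classes were not summed. The guardians summed to 59.5, 60.9, and 60.3 FPKM, and *Mcl1* made up 82.4% of their mean. The effectors summed to 167, 140, and 136 FPKM, of which *Bax* was 79.8%. The BH3-only members summed to 29.7, 29.9, and 30.3 FPKM, of which *Bbc3* was 83.9%. Among the members of each class, 1 gene thus carried about the same large share, which also depends on the genes chosen.

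The sums of the guardians and of the BH3-only genes differed little between libraries, with means of 60.2 ± 0.697 and 30.0 ± 0.304 FPKM (SD, n = 3). Guardians over effectors gave 0.357, 0.434, and 0.443, or 0.411 ± 0.0475 (SD, n = 3). Effectors over BH3-only genes gave 5.61, 4.69, and 4.49, or 4.93 ± 0.599 (SD, n = 3). *Bax* over *Bcl2* gave 276, 170, and 176, or 207 ± 59.6 (SD, n = 3). In all these ratios replicate 1 was the library that stood apart, on the side of more effector transcript. Over the whole table that library also read higher in short genes and lower in long ones, as described below. *Bax* is a short gene and *Bcl2* a long one, and the part of length in these ratios was not tested. They are ratios of transcripts, not of proteins, and they depend on the gene length used: from counts with no length, guardians over effectors was 0.864 and *Bax* over *Bcl2* was 35.6.

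**Figure D2:**
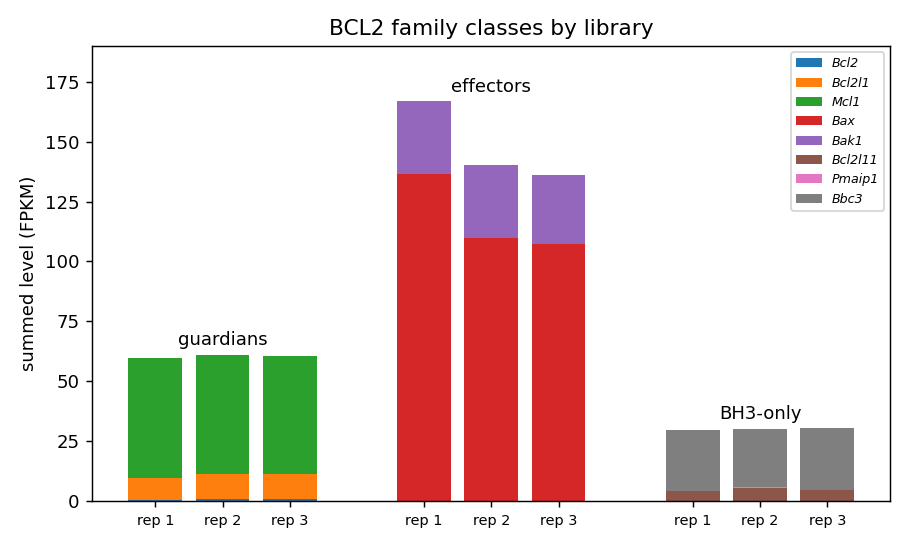
Summed FPKM of the guardians, effectors, and BH3-only genes in each library, stacked by gene, on an axis that starts at 0. The effector bar of replicate 1 is the tallest at 167 FPKM, while the guardian bars (59.5 to 60.9 FPKM) and the BH3-only bars (29.7 to 30.3 FPKM) are nearly level.

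The comparison of the 3 libraries put *Trp53* and *Bax* among the genes higher in replicate 1 than in the mean of the others, and *Bcl2l11* among those lower. For *Trp53*, however, replicate 2 was the outlying library, and replicates 1 and 3 lay closer together. Of all genes tested, 23.4% passed the test with a higher level in replicate 1 than in the mean of the others and 23.8% with a lower one, so the members' 3 calls of 9 are not more than the background. The log2 ratio of replicate 1 to the mean of replicates 2 and 3, after TMM scaling, was 0.40 for *Bax*, 0.13 for *Trp53*, and -0.23 for *Bcl2l11*. The 6 other members tested, none of them called, had log2 ratios between -0.28 for *Bcl2* and 0.10 for *Bak1* and *Bbc3*.

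**Figure D3:**
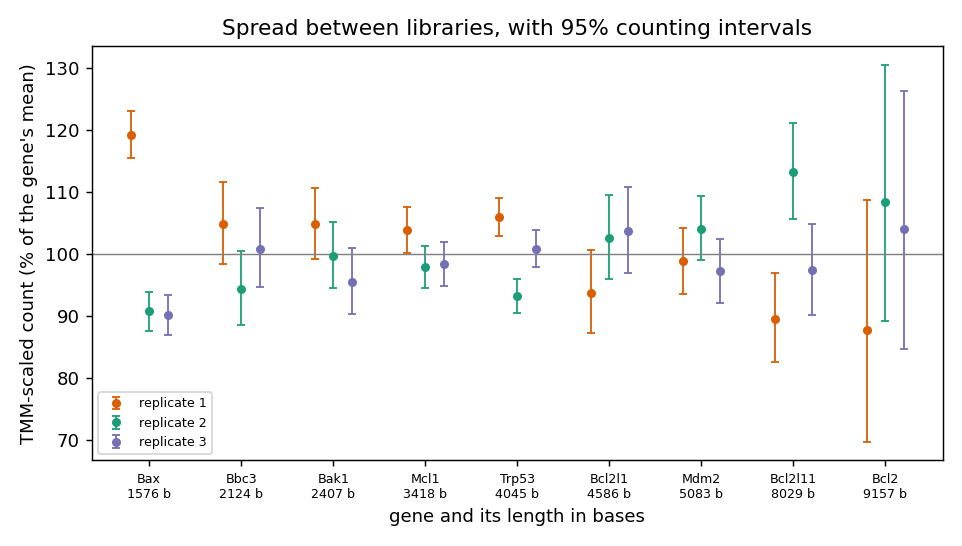
TMM-scaled count of the 9 tested genes in each library, as a percentage of the gene's mean, with exact Poisson 95% intervals, ordered by gene length. The replicate 1 point of *Bax* lies above both others with no overlap of intervals, and the wide intervals of *Bcl2* reflect its 82 to 111 counts.

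The same ratio moved with gene length over the whole table. In 20 groups of equal size, its median fell from 0.39 in the shortest genes (median length 685 bases) to -0.53 in the longest (median length 15642 bases). *Bax*, the shortest member at 1576 bases, had a log2 ratio of 0.40 where its length group had a median of 0.34. *Bcl2l11*, at 8029 bases, had -0.23 where its group had -0.26, and taking the group median off turned its sign, to 0.02. *Trp53*, at 4045 bases, was the called member that stood off the trend, with 0.13 where its group had 0.00. *Bbc3* and *Bak1* lay below the trend by 0.11 each. *Bcl2*, at 9157 bases, had -0.277 where its group had -0.283. How far length or RNA quality contributed to any 1 gene's difference, or to the ratios above, was not tested.

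**Figure D4:**
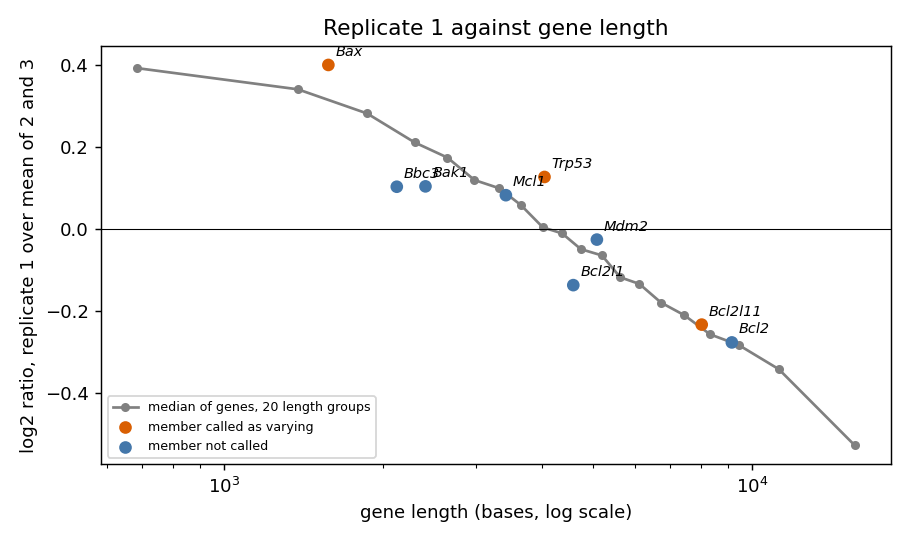
Log2 ratio of replicate 1 to the mean of replicates 2 and 3 against gene length in bases (log axis), as medians of 20 length groups (grey line) and for the 9 tested genes (points, orange where called). *Bax* and *Bcl2l11* lie near the line at 0.40 and -0.23, and *Trp53* lies 0.12 above it.

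For *Bax* and *Bcl2l11*, the members whose chi-square was largest relative to their counts, the genes with the most similar pattern over the 3 libraries were sought. Among the 4394 protein-coding genes averaging 10 FPKM or more, the nearest to *Bax* were *Ppie*, *Spc25*, and *Higd2a*, at Euclidean distances of 0.000832, 0.00270, and 0.00338 on the log2 scale. A pattern over 3 libraries is easily matched, and 717 genes lay within 0.1 of *Bax*. For *Bcl2l11* the nearest were *Ccdc50*, *Tbl2*, and *Ptbp3*, at 0.0286, 0.0290, and 0.0304, with 75 genes within 0.1.

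Since several members are known p53 targets, the RefSeq promoter windows (GRCm38.p6, 250 bases before to 50 after each start) were searched for the p53 consensus half-site of 10 bases, on both strands, as its pattern is its own reverse complement. The table held 14 windows of 9 members. An exact half-site occurred in 8.36% of all 32851 windows, and a pair of half-sites 0 to 13 bases apart with at most 2 mismatches in 4.09%. The 3 members with a match are shown with the half-sites in capitals, for *Bax* a pair (chr7:45467074-45467104, minus strand, from -206 to -176), for *Mdm2* 1 exact half-site (chr10:117710930-117710949, minus strand, from -191 to -172), and for *Trp53* 1 exact half-site (chr11:69580279-69580298, plus strand, from -80 to -61).
Bax: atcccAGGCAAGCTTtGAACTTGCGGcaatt
Mdm2: gatagGAACTTGCCTagcga
Trp53: cggaaGGACTTGCCCttact
The *Bax* pair had 2 mismatches and a gap of 1 base. Its first half-site, the exact one, was also the second of an overlapping pair, not printed, with 2 mismatches and a gap of 5 bases (chr7:45467085-45467119, from -221 to -187). The windows of *Bak1*, *Bbc3*, *Bcl2*, *Bcl2l1*, *Bcl2l11*, and *Mcl1* held no match. A match is a description of the sequence and not a measured binding site, and sites outside these windows were not searched.

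Lists of related genes place the members in their pathways. These lists hold 115 genes in the table, members included, of which 94 reached 1 FPKM in every library and 11 stayed at or under 3 counts in each. Their median level was 7.82 FPKM, beside 0.682 FPKM for all protein-coding genes. Of the 104 tested, 58 varied between libraries, 36 lower and 22 higher in replicate 1. The share of all genes to set beside this, and beside the count called in each list below, is the 47.2% given above. That share rises with counts: of the 12402 genes with at least 100 counts in all, 60.7% were called.

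Of the 8 guardian genes, 3 reached 1 FPKM in every library, and *Mcl1* and *Bcl2l1* led. The next was *Bcl2l2*, which encodes BCL-W, at 6.03 ± 0.930 FPKM (SD, n = 3). The *Bcl2a1* genes (*Bcl2a1a*, *Bcl2a1b*, and *Bcl2a1d*, near-identical copies whose reads are hard to place) and *Bcl2l10* had 0 counts in every library. *Bcl2* thus stood between 3 guardians with clear levels and 4 that were not detected. In this list 1 of 4 tested genes was called, *Bcl2l2*, lower in replicate 1 (adjusted p = 0.00103, chi-square test with Benjamini-Hochberg adjustment).

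Of the 6 effector and effector-like genes, *Bax* and *Bak1* were followed by *Bok*, the related effector that guardians hold less, at 15.5 ± 1.92 FPKM (SD, n = 3). *Bok* varied between libraries with replicate 1 highest (adjusted p = 2.56e-05, chi-square test with Benjamini-Hochberg adjustment). *Bcl2l15* had 1 count in each library. In the list, 3 of 5 tested genes were called, 2 higher and 1 lower in replicate 1.

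Of the 10 BH3-only genes, 8 reached 1 FPKM in every library, and *Pmaip1* was the only one not detected. The most abundant were *Bnip3* at 131 ± 4.38 FPKM and *Bnip3l* at 48.7 ± 0.894 FPKM (SD, n = 3), which act mainly in the removal of mitochondria, followed by *Bbc3*. *Bcl2l11* was below the list's median of 6.51 FPKM. In the list, 4 of 9 tested genes were called, 3 lower and 1 higher in replicate 1.

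The regulators of p53 were widely present, with 19 of 22 at 1 FPKM or more in every library. The highest were *Rpl11* at 463 ± 79.6 FPKM and *Rpl5* at 457 ± 77.0 FPKM (SD, n = 3), ribosomal proteins that can also bind MDM2, whose many pseudogene copies make their counts uncertain. *Aurka*, a mitotic kinase that phosphorylates p53, was next at 77.4 ± 3.44 FPKM, followed by *Trp53* itself. The p53 relative *Trp63* had 3, 0, and 0 counts. In this list 17 of 21 tested genes were called, 9 lower and 8 higher in replicate 1. This stands beside 47.2% of all genes and 60.7% of those with at least 100 counts in all. Between replicates 2 and 3, 3 of 20 were called, beside 8.11%. The list's median gene length was 5308 bases, and the part of length in its count was not tested.

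Of the 22 p53 targets in arrest, repair, and feedback, 21 reached 1 FPKM in every library. *Ddit4*, a brake on mTORC1 that p53 and other stresses induce, was highest at 649 ± 56.2 FPKM, followed by *Ccng1*, a cyclin that acts on MDM2, at 63.2 ± 5.11 FPKM and *Gtse1*, which carries p53 out of the nucleus, at 32.1 ± 2.61 FPKM (SD, n = 3). *Mdm2* sat in the middle of this list, whose median was 13.4 FPKM. Here 9 of 22 were called, 8 lower and 1 higher in replicate 1.

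Of the 15 p53 targets in cell death, 11 reached 1 FPKM in every library. *Bax* was the highest, followed by *Siva1* at 60.6 ± 11.8 FPKM (SD, n = 3) and *Bbc3*. *Pmaip1* and *Casp1*, the latter with 0, 0, and 1 counts, were not detected. Here 8 of 13 tested genes were called, 4 lower and 4 higher in replicate 1. Of the 2 p53-induced BH3-only members, *Bbc3* was thus among the 3 most abundant of the list and *Pmaip1* among the 2 not detected.

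Downstream of BAX and BAK, all 18 genes of the apoptosome, the caspases, and their inhibitors reached 1 FPKM in every library. *Cycs*, which encodes cytochrome c, stood at 68.6 ± 5.83 FPKM and *Birc5*, which encodes survivin, at 66.7 ± 10.2 FPKM (SD, n = 3). In this list 9 of 18 were called, 4 lower and 5 higher in replicate 1. The death receptor arm was sparser, with 6 of 11 genes at 1 FPKM in every library and a median of 2.16 FPKM. Its highest genes were *Tnfrsf1a*, *Casp8*, and *Tradd* at 10.8 ± 0.692, 7.56 ± 0.564, and 6.59 ± 0.636 FPKM (SD, n = 3). The ligands *Fasl* and *Tnfsf10* had 0 counts and *Tnf* had 1, 0, and 1. In this arm 3 of 8 tested genes were called, 1 lower and 2 higher in replicate 1.

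Of the 11 genes that act on the turnover of MCL1 or BIM, 10 reached 1 FPKM in every library. *Mapk3*, a kinase that marks BIM for degradation, stood at 61.2 ± 3.14 FPKM (SD, n = 3). *Huwe1*, a ubiquitin ligase of MCL1, had 4080, 11552, and 10242 counts and 20 ± 9.07 FPKM (SD, n = 3), far lower in replicate 1 than in the others. At 23507 bases, its log2 ratio was -1.32 where its length group had a median of -0.53, and the part of length was not tested. Here 8 of 11 were called, 7 lower and 1 higher in replicate 1. *Mcl1* itself had 49.3 to 49.95 FPKM, a level not scaled by TMM as the calls are. The median gene length of this list was 8665 bases, against 3982 bases for the genes of all lists.

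**Figure D5:**
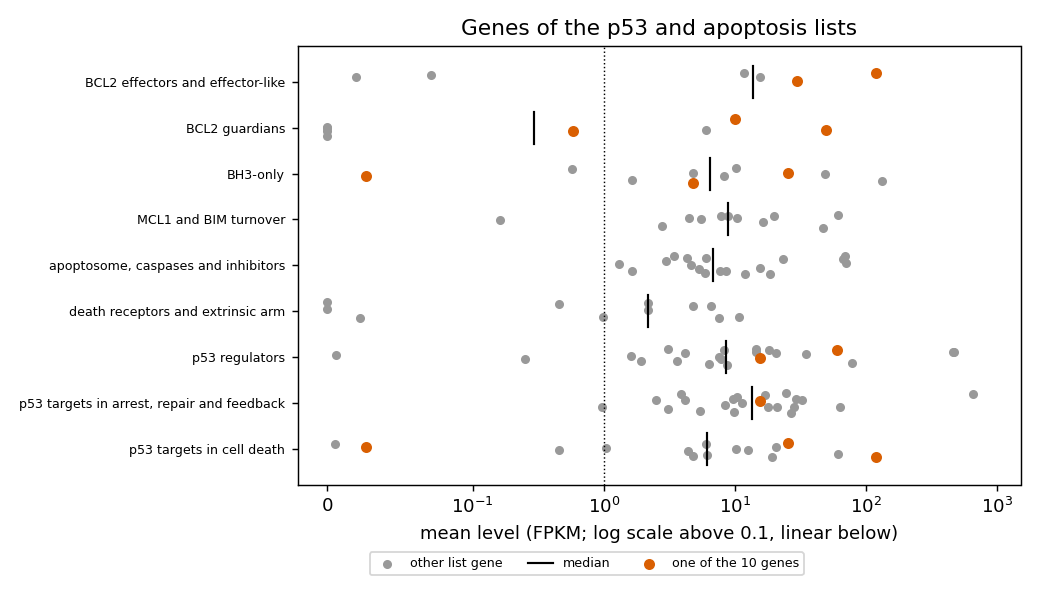
Mean FPKM of each gene in the 9 lists (points, orange for the 10 members; log axis above 0.1 FPKM and linear below), with the median of each list (black line) and 1 FPKM (dotted line). *Bax* leads the effectors and the p53 death targets, and *Pmaip1* is near 0 in both lists that hold it.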

How the data were processed

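The authors deposited 1 table of raw read counts per gene, with gene identifier, position, and length, without normalization. Libraries were made with the TruSeq kit from Trizol RNA per the labels, while the paper names a Qiagen column kit. The submitters' processing notes name HISAT2 2.0.5, and the paper gives GRCm38; the counting program and strand setting are not given in the sources used here. In the table, 3 columns match no sample and were not used, and 317 rows without a gene name (0.165% to 0.182% of counts) were left out. FPKM used the table's gene length. edgeR 4.0.16 (R 4.3.3) gave the TMM factors (0.968, 1.02, and 1.01), and DESeq2 1.42.0 alternative size factors. Genes with at least 10 counts were tested for homogeneity between libraries by chi-square against TMM library sizes (SciPy 1.17.1), with Benjamini-Hochberg adjustment at 0.05. The test, intervals, and the 3-count floor cover counting error only, since reads are not independent molecules. Length groups hold genes averaging 100 counts or more per library. Coding sequences and overlaps came from GENCODE M21, promoters from RefSeq. No protein table was used. In each list, the 3 most abundant genes and those never above 3 counts were named, together with all members; other genes named for an overlap were chosen after their values were seen. Some genes that this rule names are not reported here. The members and lists were chosen with earlier results of these data known. Alternatives covered library size, gene length, thresholds, filters, and leaving out each replicate.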

Additional observations from a re-analysis of the deposited data

How the results depend on the processing

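No paired analysis was possible because all libraries belong to 1 condition. The number of varying members was 3 of 9, beside 47.2% of all genes and 60.7% of those with at least 100 counts in all. With total counts in place of TMM sizes it was 5, beside 47.5%, adding *Mdm2* (adjusted p = 0.0211) and *Bcl2l1* (adjusted p = 0.0113, chi-square test with Benjamini-Hochberg adjustment), and it ranged from 2 to 5 when each replicate was left out. Without replicate 1 it was 2, beside 8.11%, and *Bax* was no longer called. Without replicate 2 it was 3, beside 42.9%, with *Bak1* in place of *Bcl2l11*. Without replicate 3 it was 5, beside 46.7%, with *Mcl1* and *Bbc3* added. With the length of the longest coding transcript, guardians over effectors was 0.347 and *Mdm2* over *Trp53* 0.192. From counts with no length, guardians over effectors was 0.864, effectors over BH3-only genes 2.81, *Bax* over *Bcl2* 35.6, and *Mdm2* over *Trp53* 0.324. Taking off the median of its length group turned the log2 ratio of *Bcl2l11* in replicate 1 to 0.0238. Of the 44 alternative values of the main results, 8 moved, and 36 stayed within the replicates' spread or, for counts, within 1.5 times the main count. The order of the 10 members per length was the same with each library size, TPM, and the longest coding transcript; counts with no length were not ranked. That transcript's length left 8 of 9 neighbouring pairs without overlap. The libraries of *Bak1*, with a mean of 30.1 FPKM, and *Bbc3* then overlapped. The same length raised the levels of *Bax* to 169, *Trp53* to 130, *Bbc3* to 29.4, and *Mdm2* to 24.95 FPKM. *Bcl2l1* rose to 17.9, *Bcl2l11* to 7.68, and *Bcl2* to 0.745 FPKM. In TPM, another unit, *Bax* was at 324, *Trp53* at 166, and *Bcl2* at 1.63. At a threshold of 1 TPM, 9 of the 10 members passed in every library, and the share of all genes was not counted in that unit. Depth limits *Pmaip1*, where a level under 3 counts was treated as not detected, which does not show that it was 0.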
